A study of Homo sapiens with 44 samples.

Results

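The enzymes of oxidative phosphorylation are assembled from many subunits, and the RNA of those encoded in the nucleus was measured here in HCT116, a human colon cancer cell line. Members were chosen by gene symbol. They are the names that begin with NDUFA, NDUFB, NDUFC, NDUFS or NDUFV and a digit, the names SDHA, SDHB, SDHC and SDHD, and the names that begin with UQCR, with COX and a digit between 4 and 8, or with ATP5. The rule found 88 of the 21272 gene names in the deposited RNA tables, 87 of 18797 in the table of the GAS41 experiment and 88 of 21159 in that of the doxorubicin experiment. In each table, subunits make up 78 of the rows, 36 of complex I, 4 of complex II, 8 of complex III, 15 of complex IV with their isoforms and 15 of complex V. The rest matched by symbol only and are retrocopies, pseudogenes, related factors or genes with an antisense name. There are 9 such rows with the GAS41 libraries and 10 with the doxorubicin libraries. After a filter on low reads, 81 members were tested in the GAS41 experiment and 82 in the doxorubicin experiment, of which 75 and 76 are subunits.

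Oxidative phosphorylation makes ATP at the inner mitochondrial membrane. Complexes I and II pass electrons from NADH and succinate to ubiquinone, complex III hands them to cytochrome c, complex IV reduces oxygen with them, and complex V, the ATP synthase, uses the proton gradient that complexes I, III and IV build. Complex II is made from nuclear genes alone and is also the succinate dehydrogenase of the tricarboxylic acid cycle, whereas the other complexes combine nuclear subunits with subunits encoded in mitochondrial DNA. The mitochondrially encoded subunits are not analysed here, nor are the isoform genes COX4I2, COX6A2 and COX7B2. CYC1, a subunit of complex III, and NDUFAB1, a subunit of complex I, have symbols outside the rule. Many of these nuclear genes are known targets of the transcription factors NRF1, GABP, YY1 and MYC.

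There were 18 libraries, in 6 groups of 3, all from HCT116 cells that the labels give as p53+/+. The GAS41 experiment had 4 groups, and GAS41 is the protein of YEATS4, a reader of acylated histone H3 in chromatin complexes. Its mut rescue cells carry a GAS41 knockout and stably express GFP-Flag-GAS41 with the substitutions Y74A and W93A. Its wt rescue cells also carry a GAS41 knockout and stably express GFP-Flag-GAS41 without them. The GAS41-KO cells carry a GAS41 knockout alone, and the WT cells carry none of these changes. In the doxorubicin experiment, cells received 500 nM doxorubicin, an anthracycline that traps topoisomerase II and damages DNA, or its solvent DMSO. The labels call the samples biological replicates but do not say whether they were separate cultures, how many clones the knockout and rescue lines represent, or how long doxorubicin was given. Unless each came from its own culture, a p-value here covers only sample-to-sample spread, which may be technical.

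Depth was 16857982 to 18546135 reads per library for the GAS41 groups, and 17442035 to 18894312 for doxorubicin and DMSO. Levels are normalized reads, the reads of a gene over the size factor of its library, and they are not corrected for gene length, so they are compared only within a gene. Changes are differences on the deposited log2 scale, which compresses genes with few reads. A member was called when its limma p, adjusted over all tested genes by the Benjamini-Hochberg procedure, was under 0.05. YEATS4 checked the labels, with 2551, 2358 and 2538 normalized reads in mut rescue, 2887, 3500 and 3372 in wt rescue, 386, 337 and 325 in GAS41-KO and 625, 608 and 621 in WT. Its RNA was thus lower but still present in the knockout cells, and high in both rescue lines. YEATS4 had 173, 193 and 188 normalized reads with doxorubicin and 694, 612 and 698 with DMSO. Of 8 markers of colon epithelium, 6 were tested in the GAS41 experiment and 7 in the other, and their summed level was 111507 to 124231 with doxorubicin and 58199 to 70474 with DMSO. In the GAS41 groups that sum was 56378 to 67438 in mut rescue, 64627 to 76252 in wt rescue, 53911 to 55608 in GAS41-KO and 47345 to 50124 in WT. Both rescue lines thus lay above GAS41-KO and WT. None of the 5 blood and immune markers passed the filter. Summed muscle markers were 182 to 218 with doxorubicin and 37.8 to 47.8 with DMSO, and 41.9 to 45.9 in mut rescue, 18.6 to 26.1 in wt rescue, 39.6 to 59.9 in GAS41-KO and 22.7 to 31.3 in WT. Summed fibroblast markers were 262 to 335 in mut rescue, 161 to 179 in wt rescue, 240 to 311 in GAS41-KO and 270 to 308 in WT. The part of these markers in the results was not tested.

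Some libraries stood apart from the others of their group. Against the mean of WT, the median log2 difference of the 81 tested members was 0.07, 0.21 and 0.27 in the 3 wt rescue libraries, so replicates 2 and 3 lay above replicate 1. It was -0.06, 0.06 and -0.16 in the mut rescue libraries and -0.07, -0.14 and -0.11 in the GAS41-KO libraries. Against the mean of DMSO, the median of the 82 members was -0.20, -0.02 and -0.17 with doxorubicin and 0.13, -0.04 and -0.08 in the DMSO libraries, where replicate 1 lay above the other 2. Members are short genes, with a median genomic span of 10.6 kb against 28.6 kb over all genes tested in the GAS41 experiment, and 42 of 81 were among the shortest 25% of genes, at most 11.1 kb. More of these short genes were higher than lower in wt rescue, and their values stand beside the results below.

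**Figure D1:**
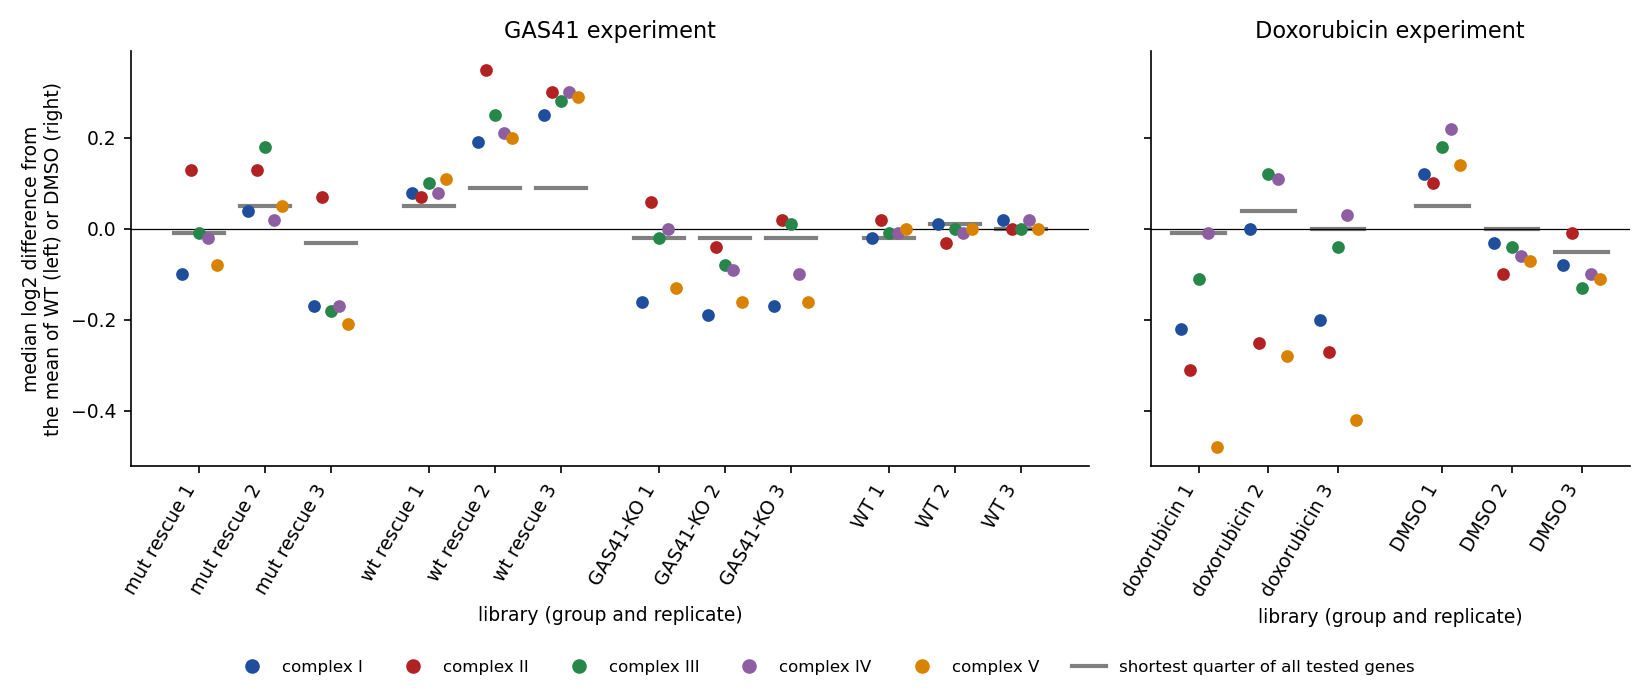
Median difference of the tested subunits of each complex in each library (log2, deposited scale), from the mean of the WT libraries in the GAS41 experiment (left) and from the mean of the DMSO libraries in the doxorubicin experiment (right). Points are complexes and grey bars are the shortest 25% of all tested genes by genomic span; every complex lies above 0 in the 3 wt rescue libraries, and in the doxorubicin libraries complex V is lowest in replicates 1, 2 and 3, at -0.48, -0.28 and -0.42.

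Promoter sequence was available for many of the subunits named below, but not for all, and ATP5D and UQCRB had none. Of the windows, 6 of 300 bases are shown. SDHA and SDHB are shown because they moved in opposite directions, and NDUFS6, NDUFA4, ATP5C1 and ATP5G2 because they were among the members that changed most in their complexes. They come from RefSeq on GRCh38.p14, run 5′ to 3′ on the strand of the gene and reach past the annotated transcription start. Capitals mark matches to the letters GCATGCGC (for NRF1), CCGGAAG (for ETS factors such as GABP) or AAGATGGC (for YY1), searched on both strands. The SDHA window is at chr5:218070-218369 on the plus strand, SDHB at chr1:17053983-17054282 on the minus strand, NDUFS6 at chr5:1801157-1801456 on the plus strand, NDUFA4 at chr7:10940104-10940403 on the minus strand, ATP5C1 at chr10:7787927-7788226 on the plus strand, and the first of the 3 windows of ATP5G2 at chr12:53676034-53676333 on the minus strand.
SDHA: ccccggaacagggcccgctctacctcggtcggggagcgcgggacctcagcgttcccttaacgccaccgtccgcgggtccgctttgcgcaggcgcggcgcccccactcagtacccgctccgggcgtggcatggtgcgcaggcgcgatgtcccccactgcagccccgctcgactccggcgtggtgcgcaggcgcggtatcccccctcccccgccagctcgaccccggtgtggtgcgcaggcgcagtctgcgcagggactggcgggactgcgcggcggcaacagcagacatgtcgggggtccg
SDHB: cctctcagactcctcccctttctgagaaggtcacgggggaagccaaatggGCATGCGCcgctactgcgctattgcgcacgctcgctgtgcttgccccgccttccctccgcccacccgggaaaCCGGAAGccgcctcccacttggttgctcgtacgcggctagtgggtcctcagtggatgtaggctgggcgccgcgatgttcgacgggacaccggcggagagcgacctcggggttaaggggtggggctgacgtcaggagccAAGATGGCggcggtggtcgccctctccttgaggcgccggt
NDUFS6: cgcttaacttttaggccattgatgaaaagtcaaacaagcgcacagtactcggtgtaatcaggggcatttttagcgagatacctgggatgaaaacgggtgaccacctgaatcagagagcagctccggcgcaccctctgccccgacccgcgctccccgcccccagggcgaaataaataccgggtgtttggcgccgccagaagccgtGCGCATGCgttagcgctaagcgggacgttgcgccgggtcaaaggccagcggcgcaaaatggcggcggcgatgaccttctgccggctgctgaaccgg
NDUFA4: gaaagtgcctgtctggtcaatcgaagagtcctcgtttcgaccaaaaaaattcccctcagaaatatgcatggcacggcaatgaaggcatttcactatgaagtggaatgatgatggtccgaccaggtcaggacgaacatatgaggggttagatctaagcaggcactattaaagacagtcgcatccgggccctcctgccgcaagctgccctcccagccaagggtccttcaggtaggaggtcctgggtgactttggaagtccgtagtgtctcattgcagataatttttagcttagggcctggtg
ATP5C1: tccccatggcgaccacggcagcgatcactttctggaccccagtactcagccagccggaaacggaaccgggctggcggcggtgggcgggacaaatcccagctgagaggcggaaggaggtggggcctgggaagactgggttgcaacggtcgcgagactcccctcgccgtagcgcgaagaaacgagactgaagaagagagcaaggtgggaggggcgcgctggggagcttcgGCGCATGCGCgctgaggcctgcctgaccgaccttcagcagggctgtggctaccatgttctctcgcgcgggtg
ATP5G2: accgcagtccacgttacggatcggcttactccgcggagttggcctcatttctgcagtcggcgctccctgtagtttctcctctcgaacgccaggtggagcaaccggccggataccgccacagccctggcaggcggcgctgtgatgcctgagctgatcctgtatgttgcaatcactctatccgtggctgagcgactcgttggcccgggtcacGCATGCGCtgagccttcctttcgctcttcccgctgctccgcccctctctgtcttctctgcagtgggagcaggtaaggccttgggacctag
The SDHB window held 1 match to each motif, starting 200 bases before the start for NRF1, 128 bases before it for ETS and 10 bases after it for YY1. NDUFS6 and ATP5G2 held 1 match to the NRF1 letters each, 46 and 40 bases before the start. In ATP5C1 a match on each strand overlapped, and the SDHA and NDUFA4 windows held none of the 3. Other members with the largest called rise or fall of their complex in some comparison are not shown. The windows of ATP5G1, UQCRC2, UQCRFS1, UQCR10, NDUFB10, NDUFB1, NDUFV2, NDUFA2, COX5A, COX6B2 and COX7C held none of the 3 either. Those of SDHD and NDUFA5 held the NRF1 letters, those of SDHD, NDUFB7 and NDUFS3 the ETS letters, and that of ATP5F1 the YY1 letters. The shown windows thus hold the NRF1 letters more often than the subunits as a whole. No match to one motif overlapped a match to another in the shown windows. Of the 78 subunits, 65 had at least 1 window. The NRF1 letters were found in 14 of them (21.5%, against 3.68% of 27305 genes with a window), the ETS letters in 20 (30.8%, against 12.16%) and the YY1 letters in 12 (18.5%, against 3.52%). The 27305 genes include noncoding genes and genes not tested here, so they are not a matched set for the subunits. A match is a description of the sequence and not a measured binding site.

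GAS41-KO cells were set against WT cells to ask whose RNA depends on GAS41. In GAS41-KO, 28 of the 81 tested members fell and 2 rose, where 26.6% of all 14505 tested genes fell and 26% rose. Their median log2 change was -0.10, against -0.01 over all tested genes. The falls were unevenly spread over the complexes, although the difference between complexes was not tested. In complex I 17 of 36 members fell and 1 rose (median -0.18), and in complex V 6 of 15 fell and none rose (median -0.17). Complex III had 2 falls among 8 (median -0.03), complex IV 1 fall among 12 (median -0.06) and complex II 1 rise and 1 fall among 4 (median 0.01), and the remaining fall was ATP5SL, which is not a subunit. With only the libraries of GAS41-KO and WT in the fit, 43 members fell and 10 rose, where 35.1% of all genes fell and 33% rose. With any 1 library of either group left out, 22 to 24 members fell and 2 rose. No share of all genes is given for those fits. The libraries of both groups did not overlap for 51 members, against 69% of all genes. In bulk RNA, fewer cells of a kind and less RNA per cell cannot be told apart.

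Expression of normal GAS41 in the knockout cells was compared with the knockout to see which levels changed when the protein was returned. In wt rescue, 56 of the 81 members rose over GAS41-KO and none fell, where 33% of all tested genes rose and 33% fell. At an unadjusted p under 0.05, 60 were higher and 1 was lower. The median log2 change of members was 0.29, against -0.01 over all genes. Every complex took part, with 24 of 36 members of complex I higher (median 0.33), 2 of 4 of complex II (0.23), 5 of 8 of complex III (0.29), 9 of 12 of complex IV (0.25) and 14 of 15 of complex V (0.36), beside 2 members that are not subunits. With replicate 1 as the only wt rescue library, 36 rose and none fell, where 26.3% of all genes rose and 25% fell; a lone library is there assumed to vary as the other groups do. After quantile normalization 43 rose and 1 fell, where 35% of all genes rose and 28.6% fell. With library totals in place of the deposited size factors 41 rose and 3 fell, where 24.8% of all genes rose and 42.1% fell and the median of all genes was -0.18. Of the shortest 25% of genes by span, 38.4% were higher and 23.6% lower in wt rescue, with a median of 0.06.

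The mutant rescue tests the same return with a YEATS domain that carries 2 substitutions. In mut rescue, 5 of the 81 members rose over GAS41-KO and none fell, where 5.92% of all genes rose and 9% fell, and the median change was 0.06. That median was 0.02 without mut rescue replicate 2 and 0.11 without replicate 3 of that line. At an unadjusted p under 0.05, 12 members were higher and none was lower. The 5 were NDUFB10 and NDUFV3 of complex I, SDHD of complex II, NDUFA4 of complex IV and ATP5F1 of complex V. These 5 calls were not stable, since without GAS41-KO replicate 2, GAS41-KO replicate 3 or mut rescue replicate 1 none passed, without mut rescue replicate 2 only 1 did and 4 others were called lower, without GAS41-KO replicate 1 there were 2, and without mut rescue replicate 3 there were 7. Set directly against wt rescue, mut rescue had 46 members lower and 1 higher, where 31.3% of all genes were lower and 29.8% higher, with a member median of -0.25. Those lower were 19 of 36 in complex I, 1 of 4 in complex II, 5 of 8 in complex III, 8 of 12 in complex IV and 11 of 15 in complex V, with 2 that are not subunits. The 1 higher was NDUFA6-AS1, which is not a subunit either. With replicate 1 as the only wt rescue library, 25 were lower and 1 higher, where 22% of all genes were lower and 20.3% higher, and with library totals 36 were lower and 5 higher, where 24% of all genes were lower and 37.2% higher. YEATS4 RNA itself was lower in mut rescue than in wt rescue (log2 change -0.37, SE 0.07, limma adjusted p = 0.000443), or by -0.21 with an adjusted p of 0.0512 when replicate 1 is the only wt rescue library, and the part of this in the difference between the lines was not tested.

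**Figure D2:**
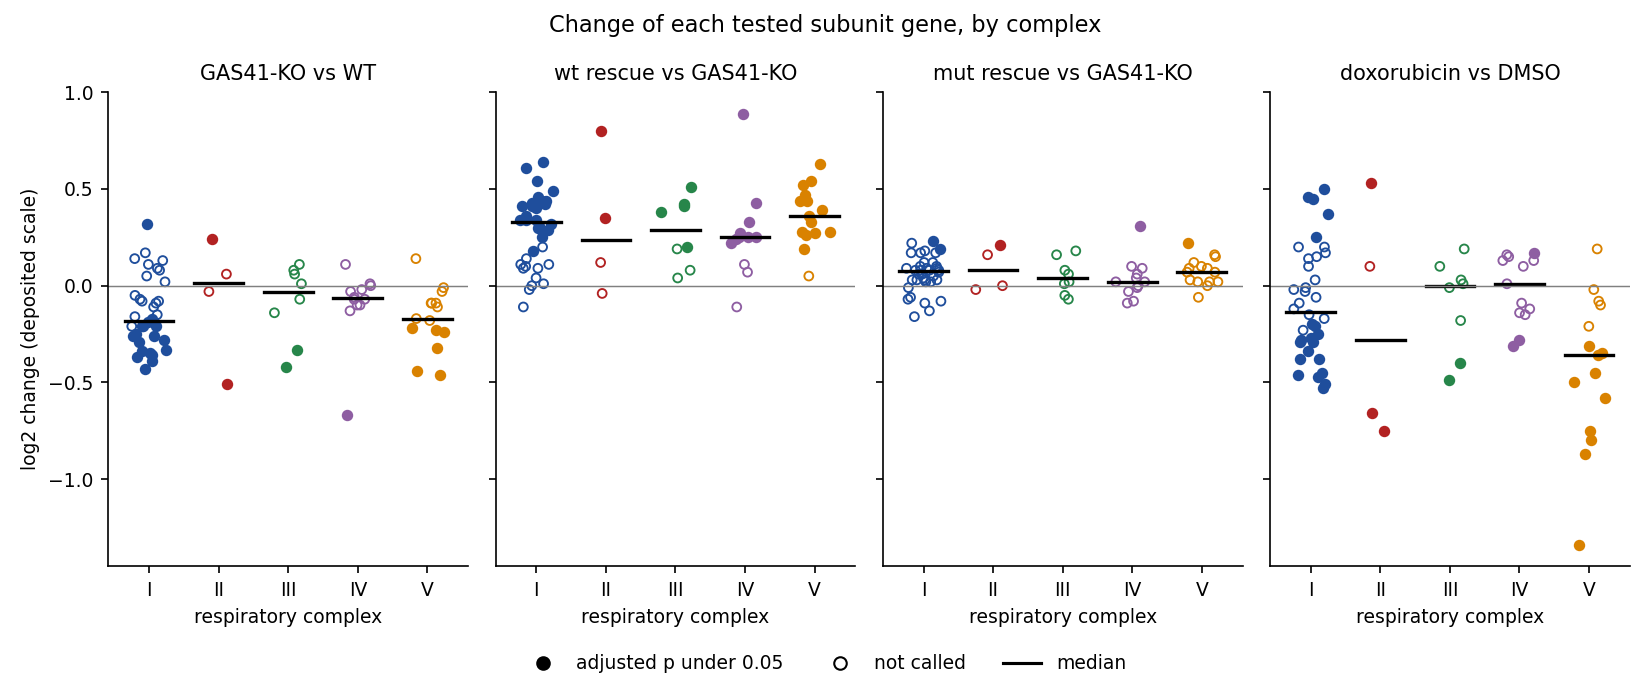
Change of each tested subunit gene (log2, deposited scale) by complex in 4 comparisons, with filled points for an adjusted p under 0.05, open points for genes that were not called and bars for the median of each complex. Most members of each complex lie above 0 in wt rescue over GAS41-KO, the mut rescue points lie near 0, and complex V reaches down to -1.34 with doxorubicin. The first 3 comparisons share the GAS41-KO libraries.

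Both rescue lines were also set against WT. In wt rescue 41 of the 81 members were higher than in WT and 1 was lower, where 27.4% of all genes were higher and 22.7% lower (member median 0.19). They were 14 of complex I, all 4 of complex II, 5 of complex III, 7 of complex IV and 9 of complex V, with 2 others that are not subunits. With replicate 1 as the only wt rescue library, again assumed to vary as the other groups do, 1 member was higher and none lower. Calls over all genes dropped as well in that smaller comparison, to 8.51% higher and 7.56% lower. With quantile normalization 11 were higher and 2 lower, where 24.4% of all genes were higher and 18.7% lower. With library totals 6 were higher and 5 lower, against 14.8% and 32.9% of all genes, and with the trend over gene span removed 21 and 2, against 27% and 24.1%. Without wt rescue replicate 3, 11 were higher, without replicate 2 of that line 23, and without WT replicate 1, 2 or 3 there were 22, 21 and 22. In mut rescue 4 members were higher than in WT and 16 lower, where 23.5% of all genes were higher and 22.9% lower (member median -0.03). Without mut rescue replicate 2, 2 were higher and 27 lower. Without replicate 3 of that line 7 were higher, and without its replicate 1 or WT replicate 3 there were 2. No share of all genes is given for the fits with 1 library left out, so these counts show only how far the calls moved. Of the 16, 9 belong to complex I, 1 to complex II, 2 to complex III, 1 to complex IV and 3 to complex V. The member of each complex furthest above or below WT is given with its complex below, and for complex II, complex III and complex V in mut rescue these were SDHA (log2 change 0.22, SE 0.07, limma adjusted p = 0.0142), SDHB (-0.34, SE 0.08, adjusted p = 0.00308), UQCRC2 (-0.41, SE 0.06, adjusted p = 2.08e-05) and ATP5G1 (-0.31, SE 0.08, adjusted p = 0.00565), none of which overlapped WT. The SDHA call was lost without WT replicate 3 (adjusted p = 0.0659) or mut rescue replicate 2 (adjusted p = 0.0544). These comparisons share libraries with those above, so their values are given side by side and not counted as separate support.

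Complex I, the NADH dehydrogenase, has a peripheral arm of core subunits that hold flavin and iron-sulfur clusters, surrounded by supernumerary subunits. Of its 7 nuclear core subunits, 4 fell in GAS41-KO, NDUFS1 and NDUFV1 among them, and in wt rescue all 7 rose over GAS41-KO, with log2 changes between 0.30 and 0.44. Among the 29 supernumerary subunits, 13 fell and 1 rose in GAS41-KO and 17 rose in wt rescue. Over all genes 26.6% fell and 26% rose in GAS41-KO, and 33% rose in wt rescue over GAS41-KO. NDUFS1, the largest core subunit and a carrier of iron-sulfur clusters, had 1730, 1623 and 1745 normalized reads in mut rescue, 1973, 2316 and 2166 in wt rescue, 1697, 1674 and 1617 in GAS41-KO and 2234, 2098 and 2189 in WT. NDUFV1, which binds the flavin and NADH, had 2033, 2424 and 2042 in mut rescue, 2537, 2850 and 2747 in wt rescue, 1964, 2000 and 2056 in GAS41-KO and 2356, 2534 and 2503 in WT. For both genes the GAS41-KO libraries all lay below the WT libraries and the wt rescue libraries all lay above the GAS41-KO libraries, while the mut rescue libraries overlapped those of GAS41-KO. The log2 change in GAS41-KO over WT was -0.36 for NDUFS1 (SE 0.06, limma adjusted p = 0.000179) and -0.28 for NDUFV1 (SE 0.07, adjusted p = 0.00355). In mut rescue over GAS41-KO it was 0.03 for NDUFS1 (SE 0.06, adjusted p = 0.821) and 0.10 for NDUFV1 (SE 0.07, adjusted p = 0.403).

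NDUFS6, a supernumerary subunit at the peripheral arm and the complex I member that fell most in GAS41-KO, had 1334, 1440 and 1210 normalized reads in mut rescue, 1677, 1851 and 1959 in wt rescue, 1285, 1173 and 1177 in GAS41-KO and 1625, 1661 and 1746 in WT. The GAS41-KO libraries lay below all WT libraries, by -0.43 on the log2 scale (SE 0.07, limma adjusted p = 0.000112), and wt rescue lay above GAS41-KO by 0.54 (SE 0.07, adjusted p = 6.92e-06). NDUFB10, a supernumerary subunit of the membrane arm, had 1837, 2037 and 1643 in mut rescue, 2402, 2499 and 2570 in wt rescue, 1614, 1477 and 1542 in GAS41-KO and 1981, 2122 and 2105 in WT. It changed most of complex I in wt rescue over GAS41-KO (log2 change 0.64, SE 0.07, adjusted p = 8.98e-07), and its 3 mut rescue libraries lay above the 3 GAS41-KO libraries (0.23, SE 0.07, adjusted p = 0.0398). This mut rescue call was among those lost above when libraries were left out. NDUFB7, another membrane arm subunit, had 604, 807 and 525 in mut rescue and 947, 1049 and 1063 in wt rescue, a log2 change of -0.57 (SE 0.10, adjusted p = 9.55e-05) with no overlap of the groups. NDUFB7 in mut rescue was also below WT, where it had 825, 915 and 837 (-0.36, SE 0.10, adjusted p = 0.00568).

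Not all of complex I moved this way. NDUFA2, a small supernumerary subunit, was the 1 member of the complex that rose in GAS41-KO, with 846, 815 and 810 normalized reads against 606, 633 and 660 in WT (log2 change 0.32, SE 0.08, limma adjusted p = 0.00364). Its level in mut rescue was 770, 1012 and 775 and in wt rescue 700, 745 and 806, both above WT (log2 changes 0.35 and 0.20, adjusted p = 0.00212 and 0.0486). The second of these calls was lost, with an adjusted p of 0.0663 to 0.182, without any 1 WT library or without wt rescue replicate 2 or 3, and with replicate 1 as the only wt rescue library that change was 0.12 (adjusted p = 0.472). NDUFA5, a peripheral arm subunit, fell in GAS41-KO to 1111, 956 and 1032, against 1379, 1318 and 1421 in WT (-0.37, SE 0.09, adjusted p = 0.00242). In wt rescue it had 1260, 897 and 1071, was not called against GAS41-KO (0.04, SE 0.09, adjusted p = 0.685) and was the 1 member below WT (-0.32, SE 0.09, adjusted p = 0.00693), a difference of -0.21 without wt rescue replicate 2 and of -0.11 with an adjusted p of 0.397 when replicate 1 is the only wt rescue library. NDUFS3, a core subunit, was the member of complex I furthest above WT in wt rescue, with 1326, 1511 and 1575 against 1082, 1127 and 1129 (0.36, SE 0.07, adjusted p = 0.000967), and with replicate 1 alone that change was 0.23 with an adjusted p of 0.079.

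Complex II split between its subunits. SDHA, the flavoprotein that oxidises succinate, had 2277, 2568 and 2275 normalized reads in mut rescue, 2119, 2463 and 2429 in wt rescue, 2330, 2424 and 2469 in GAS41-KO and 2043, 2053 and 1939 in WT. All 9 libraries of the knockout and rescue lines thus lay above the 3 WT libraries, and SDHA rose in GAS41-KO (log2 change 0.24, SE 0.07, limma adjusted p = 0.00704) with no further change called in wt rescue (-0.04, SE 0.07, adjusted p = 0.594). SDHB, the iron-sulfur subunit that passes electrons on from SDHA, had 1858, 1947 and 1683 in mut rescue, 2473, 3257 and 3081 in wt rescue, 1684, 1593 and 1564 in GAS41-KO and 2361, 2319 and 2393 in WT. It fell in GAS41-KO (-0.51, SE 0.08, adjusted p = 9.04e-05) and rose in wt rescue over GAS41-KO (0.80, SE 0.08, adjusted p = 5.08e-07), while in mut rescue over GAS41-KO it changed by 0.16 (SE 0.08, adjusted p = 0.214). Mut rescue lay below wt rescue by -0.63 (SE 0.08, adjusted p = 9.62e-06) without overlap.

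The membrane anchors of complex II behaved differently again. SDHD had 2909, 2849 and 2683 normalized reads in mut rescue, 2894, 3253 and 3186 in wt rescue, 2599, 2249 and 2401 in GAS41-KO and 2499, 2411 and 2502 in WT. GAS41-KO and WT overlapped (log2 change -0.03, SE 0.07, limma adjusted p = 0.709), and SDHD rose over GAS41-KO in wt rescue (0.35, SE 0.07, adjusted p = 0.000241) and in mut rescue (0.21, SE 0.07, adjusted p = 0.0429). The mut rescue call was among those lost above when libraries were left out. SDHD was also the member of complex II furthest above WT in wt rescue (0.31, SE 0.07, adjusted p = 0.00134), and with replicate 1 as the only wt rescue library that change was 0.22 with an adjusted p of 0.0743. SDHC, the other anchor, had 2422, 2366 and 2287 in mut rescue, 2328, 2844 and 2568 in wt rescue, 2328, 2351 and 2382 in GAS41-KO and 2345, 2205 and 2224 in WT, with a call in wt rescue over WT (0.18, SE 0.07, adjusted p = 0.037) where the groups overlapped. That call was lost without WT replicate 2 or 3 or wt rescue replicate 2 or 3, with an adjusted p of 0.0871 to 0.194, and the change was 0.04 with replicate 1 as the only wt rescue library.

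Complex III, the cytochrome bc1 complex, changed in few of its members in the knockout. CYC1, a subunit of this complex outside the rule, also fell in GAS41-KO (log2 change -0.43, SE 0.10, limma adjusted p = 0.00152). UQCRC2, a core subunit, had 3520, 3330 and 3293 normalized reads in mut rescue, 4314, 4666 and 4529 in wt rescue, 3467, 3255 and 3330 in GAS41-KO and 4591, 4436 and 4612 in WT. UQCRFS1, the Rieske iron-sulfur protein, had 1889, 1940 and 1728 in mut rescue, 2270, 2697 and 2675 in wt rescue, 1789, 1770 and 1672 in GAS41-KO and 2193, 2212 and 2286 in WT. Both genes fell in GAS41-KO (log2 changes -0.42 and -0.33, SE 0.06 and 0.07, limma adjusted p = 1.2e-05 and 0.000833), and both rose in wt rescue over GAS41-KO (0.41 and 0.51, adjusted p = 1.09e-05 and 9.77e-06). In mut rescue over GAS41-KO they changed by 0.01 and 0.08 (adjusted p = 0.92 and 0.511). UQCRC1, the partner of UQCRC2, did not follow it: it had 3603, 4273 and 3506 in mut rescue, 3573, 4037 and 3967 in wt rescue, 3777, 3625 and 3808 in GAS41-KO and 3351, 3564 and 3409 in WT, and was called in none of these comparisons. Of the small subunits, UQCR10 had 1012, 1122 and 846 in mut rescue and 1263, 1426 and 1454 in wt rescue (-0.43, SE 0.08, adjusted p = 0.000338), and its wt rescue level was also above WT at 1120, 1095 and 1044 (0.31, SE 0.08, adjusted p = 0.00608), or by 0.19 with an adjusted p of 0.222 when replicate 1 is the only wt rescue library. UQCRB, a ubiquinone-binding subunit, was higher in mut rescue than in WT, with 4798, 4486 and 4265 against 3952, 3736 and 3728 (0.24, SE 0.07, adjusted p = 0.0104), a call lost without mut rescue replicate 1 (0.19, adjusted p = 0.0569).

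Complex IV, cytochrome c oxidase, had 1 member that changed in the knockout, and it was the member that changed most among all 81. NDUFA4, first assigned to complex I and now counted with complex IV, had 1569, 1638 and 1340 normalized reads in mut rescue, 2121, 2333 and 2578 in wt rescue, 1242, 1186 and 1155 in GAS41-KO and 1969, 1999 and 1978 in WT. The 4 groups did not overlap with each other. NDUFA4 fell in GAS41-KO to 0.60 of its WT level (log2 change -0.67, SE 0.08, limma adjusted p = 2.26e-06), rose 1.96-fold in wt rescue over GAS41-KO (0.89, SE 0.08, adjusted p = 5.89e-08) and rose 1.27-fold in mut rescue over GAS41-KO (0.31, SE 0.08, adjusted p = 0.0129). The last of these calls was lost without GAS41-KO replicate 2 or 3 or mut rescue replicate 1, with an adjusted p of 0.0505 to 0.0643. Mut rescue remained below wt rescue (-0.58, SE 0.08, adjusted p = 9.26e-06) and below WT (-0.36, SE 0.08, adjusted p = 0.00108).

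Other subunits of complex IV stayed within smaller ranges in the knockout. COX4I1, the common form of the largest nuclear subunit, had 5727, 6379 and 4966 normalized reads in mut rescue, 6167, 6882 and 7249 in wt rescue, 5939, 5517 and 5499 in GAS41-KO and 5113, 5921 and 5827 in WT. COX5B had 2093, 2366 and 1926 in mut rescue, 2176, 2523 and 2441 in wt rescue, 2141, 1929 and 1904 in GAS41-KO and 2084, 2127 and 2224 in WT. For both the GAS41-KO and WT libraries overlapped (log2 changes 0.01 and -0.10, SE 0.09 and 0.08, limma adjusted p = 0.936 and 0.29), and both rose in wt rescue over GAS41-KO (0.25 and 0.24, adjusted p = 0.0193 and 0.0121). With replicate 1 as the only wt rescue library each changed by 0.12 and neither was called (adjusted p = 0.36 and 0.304). The COX4I1 call was also lost without GAS41-KO replicate 2 or 3 or wt rescue replicate 3, and the COX5B call without GAS41-KO replicate 3, with an adjusted p of 0.0543 to 0.0915. COX5A was the member of the complex furthest above WT in wt rescue, with 2452, 2878 and 2902 against 2048, 2061 and 2175 (0.36, SE 0.07, adjusted p = 0.00092), and with replicate 1 as the only wt rescue library its change was 0.21 with an adjusted p of 0.0808. The tissue isoforms were scarce. COX6B2, the testis form of a subunit at the outer face, had 5.98 to 13.1 normalized reads in mut rescue, 7.23 to 11 in wt rescue, 9.9 to 17 in GAS41-KO and 9.49 to 18.9 in WT. NDUFA4L2, a paralogue of NDUFA4, had 1 to 12.5 normalized reads over the 12 libraries and COX7A1, the muscle and heart form, 0 to 8.98, and neither passed the filter in this experiment, nor did COX8C.

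Complex V, the ATP synthase, joins the catalytic F1 head to a rotor of c subunits in the membrane through a central and a peripheral stalk. The 5 F1 subunits were counted with those of the central stalk, such as ATP5C1. Only 1 of these 5, ATP5C1, fell in GAS41-KO, against 4 of 7 peripheral stalk or membrane subunits and 1 of 3 c subunit genes. All 5 F1 and all 7 peripheral stalk or membrane subunits rose in wt rescue over GAS41-KO. Over all genes 26.6% fell in GAS41-KO and 33% rose in wt rescue over GAS41-KO. ATP5A1, the alpha subunit of the head, had 12323, 11904 and 11293 normalized reads in mut rescue, 12465, 15251 and 14844 in wt rescue, 11453, 10989 and 11250 in GAS41-KO and 12665, 12689 and 12528 in WT. ATP5B, the catalytic beta subunit, had 20567, 20379 and 18215 in mut rescue, 20439, 24772 and 24127 in wt rescue, 17802, 17319 and 17604 in GAS41-KO and 18623, 18762 and 18717 in WT. The GAS41-KO libraries lay below all WT libraries for both genes, with log2 changes of -0.17 and -0.09 that were not called (SE 0.07 each, limma adjusted p = 0.057 and 0.318). Both rose in wt rescue over GAS41-KO (0.33 and 0.39, adjusted p = 0.000686 and 0.000185), more in replicates 2 and 3 than in replicate 1. With replicate 1 as the only wt rescue library the changes were 0.15 and 0.22 (adjusted p = 0.0732 and 0.0185).

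ATP5C1, the gamma subunit of the central stalk, had 3624, 3389 and 3307 normalized reads in mut rescue, 3962, 4754 and 4732 in wt rescue, 3359, 3105 and 3322 in GAS41-KO and 3927, 3763 and 3839 in WT. ATP5F1, the b subunit of the peripheral stalk, had 4496, 4247 and 3883 in mut rescue, 5397, 4986 and 5542 in wt rescue, 3771, 3387 and 3647 in GAS41-KO and 5163, 4762 and 4939 in WT. Both fell in GAS41-KO (log2 changes -0.23 and -0.44, SE 0.07 each, limma adjusted p = 0.0133 and 4.76e-05). The ATP5C1 call was lost without GAS41-KO replicate 2 or WT replicate 1 (adjusted p = 0.0677 and 0.0506). All mut rescue libraries of ATP5F1 lay between those of GAS41-KO and WT (0.22 over GAS41-KO, SE 0.07, adjusted p = 0.0449). Its call over GAS41-KO was among those lost above when libraries were left out. ATP5D, the delta subunit, had 1503, 2113 and 1145 in mut rescue and 2292, 2098 and 2332 in wt rescue, and it was called lower in mut rescue (-0.50, SE 0.13, adjusted p = 0.00421) although 1 mut rescue library overlapped. Its change was -0.71 without mut rescue replicate 2 and -0.30 without replicate 3 of that line. In wt rescue ATP5D was the member of complex V furthest above WT, where it had 1637, 1788 and 1799 (0.34, SE 0.13, adjusted p = 0.0445), a call lost without any 1 library of either group other than wt rescue replicate 2 (adjusted p = 0.0517 to 0.133).

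The c subunit is encoded by 3 genes whose mature proteins are the same, and they did not move together. ATP5G1 had 1571, 1806 and 1372 normalized reads in mut rescue, 2092, 2256 and 2451 in wt rescue, 1474, 1330 and 1424 in GAS41-KO and 1945, 2056 and 1965 in WT. It fell in GAS41-KO (log2 change -0.46, SE 0.08, limma adjusted p = 0.000219), the largest fall in complex V, and rose in wt rescue over GAS41-KO (0.63, SE 0.08, adjusted p = 5.95e-06), with no overlap in either. ATP5G2 had 3195, 3537 and 2761 in mut rescue, 3337, 3342 and 3599 in wt rescue, 3466, 3196 and 3231 in GAS41-KO and 3104, 2878 and 2954 in WT, and ATP5G3 had 4331, 4585 and 3979 in mut rescue, 4061, 4563 and 4894 in wt rescue, 3922, 3884 and 3980 in GAS41-KO and 3936, 3970 and 3969 in WT. In GAS41-KO over WT, ATP5G2 changed by 0.14 (SE 0.08, adjusted p = 0.14) and ATP5G3 by -0.01 (SE 0.07, adjusted p = 0.912), so neither was called.

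**Figure D3:**
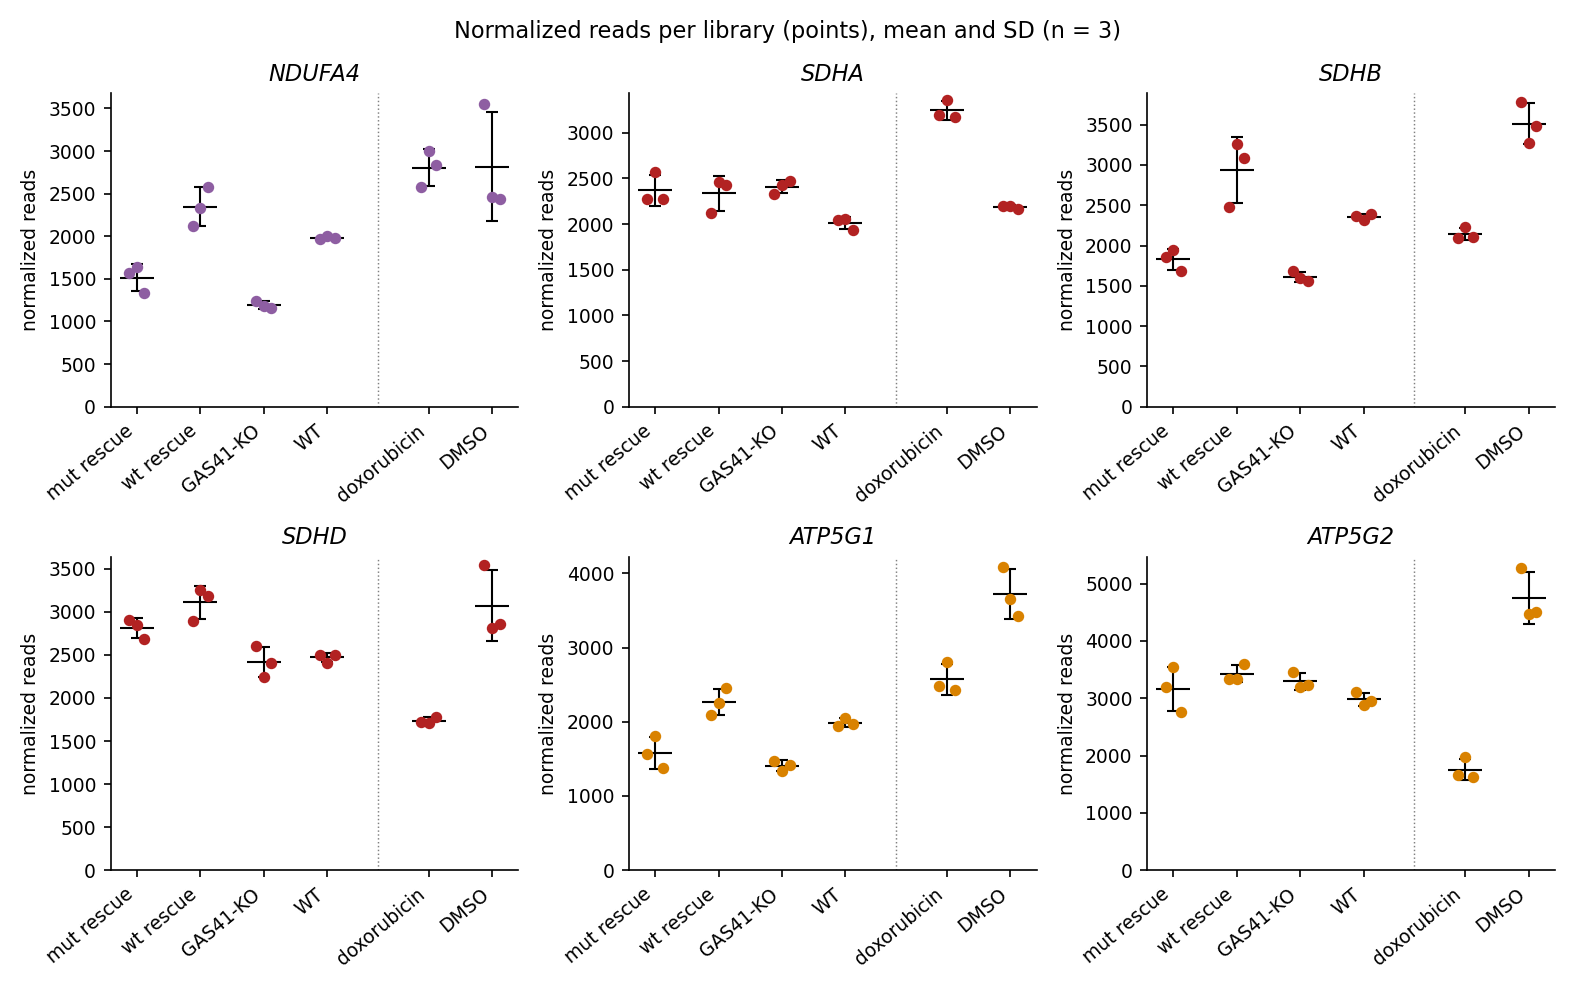
Normalized reads in each library (points) for 6 subunit genes, with the mean as a horizontal line and the SD as error bars (n = 3 per group); a dotted line parts the GAS41 experiment (left) from the doxorubicin experiment (right), which were normalized separately. NDUFA4, SDHB and ATP5G1 are lowest in GAS41-KO among the first 4 groups, and with doxorubicin SDHA is above DMSO while SDHB, SDHD, ATP5G1 and ATP5G2 are below it.

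The doxorubicin experiment asked how RNA levels in the same cell line respond to the drug. With doxorubicin, 33 of the 82 tested members fell and 8 rose, where 33.4% of all 14195 tested genes fell and 32.3% rose, so the share of members that fell was near that of all genes while fewer rose. The median log2 change of members was -0.12, against -0.01 over all genes. It ran from -0.20 without DMSO replicate 3 to -0.04 without DMSO replicate 1, and was -0.19 without doxorubicin replicate 2, -0.08 without doxorubicin replicate 1, -0.09 without doxorubicin replicate 3 and -0.17 without DMSO replicate 2. The groups did not overlap for 41 of 82 members, against 69.1% of all genes. Complex V had the lowest median, -0.36, with 10 of 15 members lower and none higher. Complex I had 15 lower and 5 higher among 36 (median -0.13), complex II 2 lower and 1 higher among 4 (median -0.28), complex III 2 lower among 8 (median -0.00) and complex IV 2 lower and 1 higher among 13 (median 0.01), and 2 falls and 1 rise were of members that are not subunits. Without DMSO replicate 1, 32 members fell and 20 rose, where 33.7% of all genes fell and 33.6% rose, and the median of complex V was -0.31, with 9 lower and 1 higher. With library totals in place of the deposited size factors, 30 fell and 19 rose, where 27.9% of all genes fell and 36.4% rose.

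ATP5G2 was the member that changed most with doxorubicin, with 1664, 1970 and 1632 normalized reads against 5278, 4474 and 4503 with DMSO. It fell to 0.37 of its DMSO level (log2 change -1.34, SE 0.09, limma adjusted p = 2.79e-08), and the groups lay far apart. The other c subunit genes fell less, ATP5G1 to 2483, 2806 and 2423 against 4082, 3652 and 3424 with DMSO (-0.50, SE 0.08, adjusted p = 0.000137), and ATP5G3 to 3924, 4464 and 3853 against 5799, 4989 and 4980 (-0.35, SE 0.08, adjusted p = 0.00249). Of the 5 F1 subunits, those of the central stalk included, 4 fell (80%), where 33.4% of all genes fell. ATP5A1 had 10704, 12050 and 10603 with doxorubicin and 17790, 16210 and 16141 with DMSO (-0.58, SE 0.08, adjusted p = 2.97e-05), and ATP5B had 15348, 16488 and 15154 with doxorubicin and 26571, 26290 and 26505 with DMSO (-0.75, SE 0.07, adjusted p = 1.22e-06). ATP5C1 had 2741, 3019 and 3047 with doxorubicin and 6723, 4917 and 5084 with DMSO (-0.87, SE 0.10, adjusted p = 8.28e-06), where DMSO replicate 1 was well above the other 2. Of the 7 peripheral stalk or membrane subunits 3 fell (42.9%). Among them was ATP5O, which links the head to the peripheral stalk, with 2227, 2715 and 2463 against 5322, 4122 and 4005 (-0.80, SE 0.10, adjusted p = 1.67e-05).

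Complex II split under doxorubicin as well. SDHA rose to 3196, 3360 and 3178 normalized reads with doxorubicin, against 2198, 2197 and 2166 with DMSO (log2 change 0.53, SE 0.06, limma adjusted p = 9.97e-06). SDHB fell to 2100, 2234 and 2112 with doxorubicin, against 3776, 3274 and 3488 with DMSO (-0.66, SE 0.07, adjusted p = 3.65e-06), and SDHD fell to 1720, 1705 and 1784, against 3544, 2809 and 2864 (-0.75, SE 0.09, adjusted p = 4.99e-06). None of these groups overlapped. SDHC had 2863, 2946 and 3048 with doxorubicin and 2964, 2526 and 2741 with DMSO, which overlapped (0.10, SE 0.07, adjusted p = 0.243). The subunits of the enzyme thus moved in opposite directions, with 1 rise of 1.48-fold beside falls to 0.61 and 0.56 of the DMSO level.

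**Figure D4:**
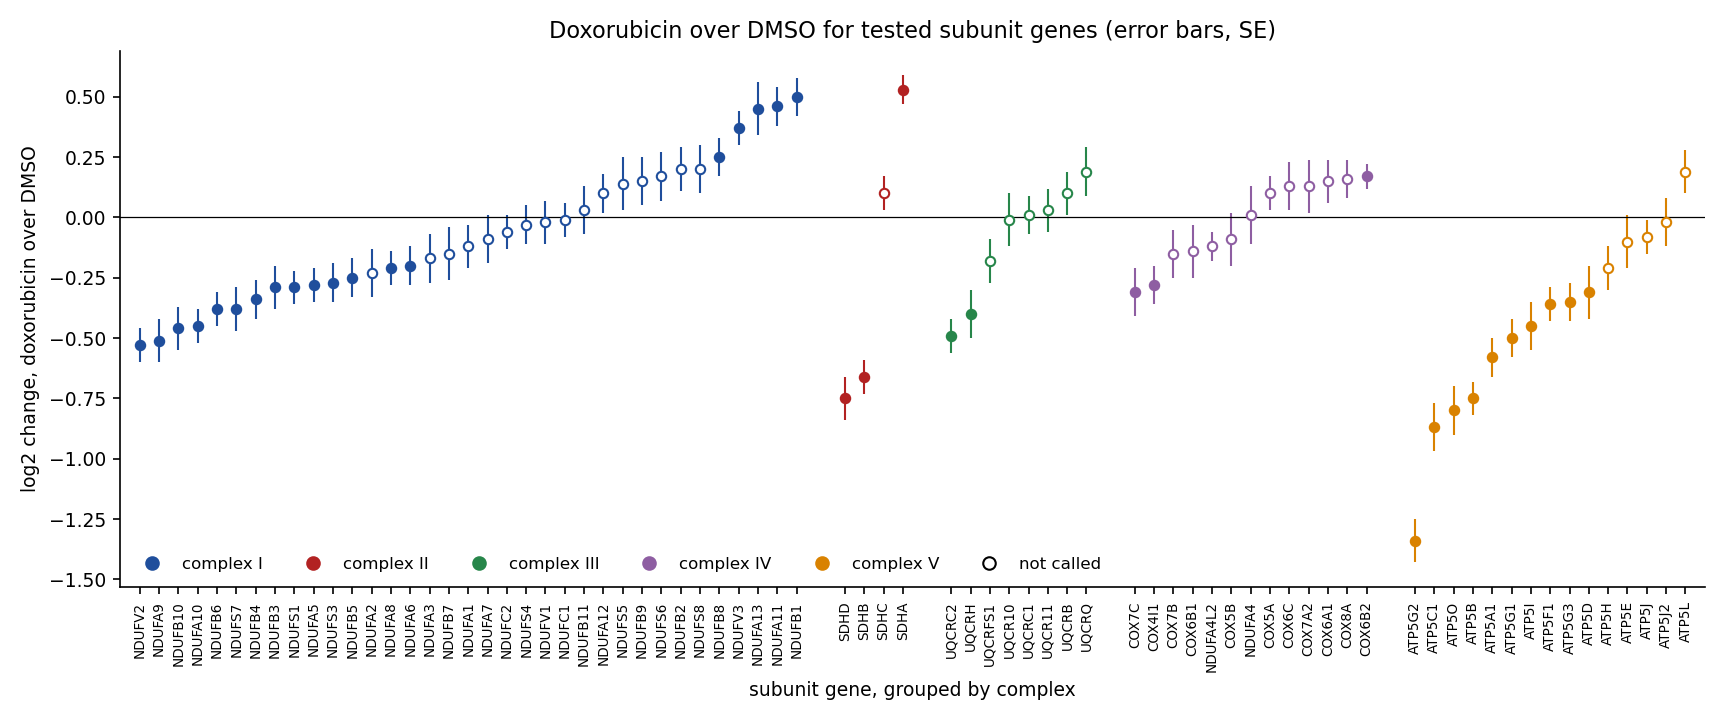
Log2 change (deposited scale) of tested subunit genes with doxorubicin over DMSO, ordered by size within each complex, with the SE from the limma fit as error bars, filled points for an adjusted p under 0.05 and open points for genes that were not called. Complexes III and IV lie mostly near 0, complex V has 10 falls down to -1.34 for ATP5G2, and SDHA stands at 0.53 apart from SDHB and SDHD in complex II.

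Complex I held both rises and falls with doxorubicin, where 33.4% of all genes fell and 32.3% rose. Of its 7 nuclear core subunits 5 fell, and the fall was largest for NDUFV2, an iron-sulfur protein of the NADH site, with 1718, 1962 and 1768 normalized reads against 2847, 2595 and 2658 with DMSO (log2 change -0.53, SE 0.07, limma adjusted p = 2.89e-05). NDUFS1 had 1722, 1766 and 1850 with doxorubicin and 2355, 2091 and 2232 with DMSO (-0.29, SE 0.07, adjusted p = 0.00217), whereas its neighbour NDUFV1 had 3341, 4020 and 3213 with doxorubicin and 3850, 3595 and 3261 with DMSO and was not called (-0.02, SE 0.09, adjusted p = 0.857). All 5 rises were supernumerary subunits, NDUFB1, NDUFA11, NDUFA13, NDUFV3 and NDUFB8. NDUFB1 rose most, to 755, 857 and 824 with doxorubicin, against 588, 476 and 495 with DMSO (0.50, SE 0.08, adjusted p = 5.98e-05). NDUFA11 rose 1.42-fold and NDUFA13 1.39-fold (adjusted p = 0.000263 and 0.00253).

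Few members of complexes III and IV changed with doxorubicin. UQCRC2 fell to 3821, 4045 and 3966 normalized reads with doxorubicin, against 5917, 5469 and 5446 with DMSO (log2 change -0.49, SE 0.07, limma adjusted p = 3.96e-05), and UQCRH, the hinge protein, was the other fall (-0.40, SE 0.10, adjusted p = 0.00238), with a near-identical copy, UQCRHL, that makes its reads uncertain. UQCRC1 had 4759, 5679 and 4876 with doxorubicin and 5263, 5253 and 4624 with DMSO (0.01, SE 0.08, adjusted p = 0.894), and UQCRFS1 had 2487, 2769 and 2454 with doxorubicin and 3376, 2816 and 2649 with DMSO (-0.18, SE 0.09, adjusted p = 0.0928). The groups overlapped for both. In complex IV, COX7C fell to 4628, 5442 and 4929 with doxorubicin, against 7343, 5677 and 5781 with DMSO (-0.31, SE 0.10, adjusted p = 0.015), and COX4I1 to 5453, 6394 and 5305, against 7162, 7125 and 6583 (-0.28, SE 0.08, adjusted p = 0.00975). The COX7C change was -0.19 without DMSO replicate 1, and its call was lost without doxorubicin replicate 1 (adjusted p = 0.0703). The COX4I1 call was lost without doxorubicin replicate 1 or 3 (adjusted p = 0.0533 and 0.0657). COX5B had 2394, 2790 and 2471 with doxorubicin and 3361, 2646 and 2268 with DMSO, which overlapped (-0.09, SE 0.11, adjusted p = 0.495). NDUFA4, the member that fell most in GAS41-KO, had 2573, 3006 and 2832 with doxorubicin and 3555, 2464 and 2434 with DMSO, with DMSO replicate 1 above the other 5 libraries and no change called (0.01, SE 0.12, adjusted p = 0.942). COX6B2 was called higher at few reads, with 17.8, 23.4 and 18.7 against 11.2, 12.9 and 7.76 (0.17, SE 0.05, adjusted p = 0.0141), a call lost without DMSO replicate 3 or doxorubicin replicate 2 (adjusted p = 0.0641 and 0.0531). NDUFA4L2 had 4.93 to 12.8 with doxorubicin and 9.15 to 15.9 with DMSO, and COX7A1 had 0 to 2.04 with doxorubicin and 0.97 to 3.97 with DMSO.

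Lower levels in the knockout and with doxorubicin were set side by side. Of 80 members tested in both experiments, 28 fell in GAS41-KO and 33 with doxorubicin, and 16 fell in both, which is 57.1% of the first list and 48.5% of the second. Over all 13803 genes tested in both, 51.8% of those that fell in GAS41-KO also fell with doxorubicin, and 41.9% of those that fell with doxorubicin also fell in GAS41-KO, so the shares among members were near those of all genes. The 16 include SDHB, UQCRC2, NDUFS1, NDUFV2, ATP5C1, ATP5F1, ATP5G1 and ATP5O, and none of the 16 belongs to complex IV. SDHA rose in both experiments.

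The matched genes that are not subunits were few among the calls. ATP5SL, now DMAC2, an assembly factor of complex I, fell in GAS41-KO to 683, 657 and 680 normalized reads, against 760, 800 and 800 in WT (log2 change -0.19, SE 0.07, limma adjusted p = 0.0417), a call lost when any 1 of these libraries was left out. It fell with doxorubicin to 861, 960 and 894, against 1261, 1175 and 1126 with DMSO (-0.33, SE 0.07, adjusted p = 0.000817), as did COX7A2L, which takes part in joining complexes III and IV (-0.38, SE 0.08, adjusted p = 0.000633). NDUFA6-AS1, now NDUFA6-DT, rose with doxorubicin to 115, 131 and 115, against 59, 49.6 and 47.5 with DMSO (0.48, SE 0.06, adjusted p = 8.39e-06). NDUFA6 itself was called lower with doxorubicin (-0.20, SE 0.08, limma adjusted p = 0.0488). Whether counting used strand is not given in the sources used here, and any sharing of reads between these genes was not tested. UQCRHL and ATP5L2, near-identical copies of UQCRH and ATP5L, had at most 8.88 and 4.94 normalized reads in any library and were not tested. ATP5EP2, a copy of ATP5E, was tested only with doxorubicin, where it had 21.7, 19.3 and 18.7 against 22.4, 19.8 and 15.5 with DMSO. Also below the filter were COX7A1 and COX8C in both experiments, NDUFA4L2 in the GAS41 experiment, and NDUFV2-AS1 and UQCRBP1 in the doxorubicin experiment.

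Genes that control or serve the complexes were counted from lists chosen with earlier results known. Over all genes, 26.6% fell and 26% rose in GAS41-KO, 33% rose and 33% fell in wt rescue over GAS41-KO, 5.92% rose and 9% fell in mut rescue over GAS41-KO, and 33.4% fell and 32.3% rose with doxorubicin. Of 11 regulators of mitochondrial transcription and biogenesis, 7 fell and none rose in GAS41-KO (median log2 change -0.29), 9 rose and 1 fell in wt rescue over GAS41-KO (0.46), and 2 rose and none fell in mut rescue over GAS41-KO (0.11). With doxorubicin 8 fell and 1 rose (-0.46). NRF1, a factor that binds the motif searched above, had 448, 392 and 460 normalized reads in mut rescue, 584, 675 and 649 in wt rescue, 446, 396 and 429 in GAS41-KO and 485, 503 and 522 in WT, and it had 236, 216 and 207 with doxorubicin against 582, 632 and 570 with DMSO. NRF1 fell in GAS41-KO (-0.19, SE 0.07, limma adjusted p = 0.0226), a call lost without GAS41-KO replicate 2 or WT replicate 2 or 3 (adjusted p = 0.0555 to 0.105), and with doxorubicin (-0.97, SE 0.06, adjusted p = 2.79e-08), in tables that were normalized separately. ESRRA, a nuclear receptor of energy metabolism, rose 2.38-fold with doxorubicin, to 2412, 2552 and 2460 against 1175, 964 and 981 with DMSO (1.11, SE 0.08, adjusted p = 4.4e-08). PPRC1, a coactivator related to PGC-1, fell in GAS41-KO (-0.49, SE 0.07, adjusted p = 1.11e-05) and rose over it in wt rescue (0.89, SE 0.07, adjusted p = 1.05e-08) and in mut rescue (0.35, SE 0.07, adjusted p = 0.00159), while PPARGC1B fell in GAS41-KO (-0.54, SE 0.07, adjusted p = 8.56e-06) and changed by 0.05 in mut rescue over GAS41-KO (adjusted p = 0.738).

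TFAM, which binds mitochondrial DNA, fell in GAS41-KO (log2 change -0.36, SE 0.09, limma adjusted p = 0.00266) and with doxorubicin (-0.48, SE 0.08, adjusted p = 0.000112). GABPA, the DNA-binding part of GABP, fell with doxorubicin (-0.46, SE 0.10, adjusted p = 0.000943) and its direction in wt rescue over GAS41-KO turned from -0.44 (SE 0.17, adjusted p = 0.0357) to 0.17 with replicate 1 as the only wt rescue library (adjusted p = 0.166). MYC, a transcription factor that binds many of these genes, had 4872, 5951 and 4833 normalized reads in mut rescue, 6531, 7833 and 7549 in wt rescue, 3572, 3645 and 3669 in GAS41-KO and 5716, 5814 and 5908 in WT. MYC fell in GAS41-KO (-0.66, SE 0.08, adjusted p = 4.49e-06) and rose over it in wt rescue (0.98, SE 0.08, adjusted p = 3.6e-08) and in mut rescue (0.50, SE 0.08, adjusted p = 0.000517). Its libraries in mut rescue lay above all GAS41-KO libraries and below all wt rescue libraries. CYCS, cytochrome c itself, fell in GAS41-KO (-0.29, SE 0.07, adjusted p = 0.00322) and with doxorubicin (-0.48, SE 0.08, adjusted p = 0.000152), and ATPIF1, the inhibitor of complex V, rose with doxorubicin (0.62, SE 0.08, adjusted p = 1.37e-05) while 10 subunits of that complex fell.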

How the data were processed

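Per the labels, the GAS41 libraries were made from poly-A RNA and read on a BGISEQ-500, and the doxorubicin and DMSO libraries were read on an Illumina HiSeq. DESeq2, HTSeq, TopHat2 2.1.0, Bowtie 1.0.1, Trimmomatic 0.36 and CASAVA 1.4 are named without a role in the submitters' processing notes; the annotation and strand setting are not given in the sources used here. The 26 ChIP and input samples are not analysed here.

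The authors deposited log2 values on a variance-stabilized scale. Inverting that scale gave whole reads to within 0.01 for 100.0% of values, and these served for levels, depth and the filter. At 1 log2 over the lowest value a gene has 39.1 normalized reads (GAS41 libraries) or 52.6 (doxorubicin libraries), so changes of genes with few reads come out compressed. Since the deposited values are not counts, they were tested with limma 3.58.1 (R 4.3.3, mean-dependent prior variance) over genes with at least 10 reads in at least 3 libraries. This left 14505 and 14195 genes, and Benjamini-Hochberg adjustment ran over all of them. The 12 libraries of the GAS41 groups shared 1 fit, the other 6 had their own, and 7 comparisons were made. Replicates differed by more than sampling noise in every pair.

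Members and gene lists were chosen with earlier results of these data known. Named in every library are NDUFS1, NDUFV1, SDHA, SDHB, UQCRC1, UQCRFS1, COX4I1, COX5B, ATP5A1, ATP5B and YEATS4, with the isoform and c subunit genes. In each comparison the called member of each complex with the largest rise and fall is named; others were chosen after their values were seen. A result on 1 member is not reported here, and the member stays in all counts. Alternatives were no filter, quantile normalization, voom with the deposited size factors or library totals, a replicate block, a fit of 2 groups, an adjusted p of 0.01 and leaving libraries out. Removal of the trend over gene span, from RefSeq on GRCh38, was added after seeing the data. Gene span was found for 98.2% and 98.4% of tested genes. Plots used Python 3.11.15 and matplotlib 3.10.9.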

Additional observations from a re-analysis of the deposited data

Results flagged for a closer look

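Both rescue lines are labelled as GAS41-KO, but the labels do not say whether they come from the same knockout clone. The part of clones in their difference was not tested. Both were compared with the same GAS41-KO libraries, so the comparison of mut rescue with wt rescue tests whether their changes over GAS41-KO differ. By that test 46 members were lower in mut rescue than in wt rescue, where 31.3% of all genes were lower and 29.8% higher, and 25 were lower with replicate 1 as the only wt rescue library. The member of each complex with the largest difference (log2, mut rescue over wt rescue) was NDUFB7 in complex I (-0.57), SDHB in complex II (-0.63), UQCR10 in complex III (-0.43), NDUFA4 in complex IV (-0.58) and ATP5D in complex V (-0.50, or -0.71 without mut rescue replicate 2 and -0.30 without replicate 3). YEATS4 RNA differed between the lines in the same direction, and wt rescue replicates 2 and 3 stood above replicate 1, which was not tested as a cause.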

How the results depend on the processing

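The alternatives gave 660 single values for 50 of the named changes. Of these 660, 611 kept their direction and their side of the threshold, 49 lost the call and none reversed. GABPA was not among the 50, and its change in wt rescue over GAS41-KO did reverse with replicate 1 as the only wt rescue library. Counts of members moved as follows. Where no share of all genes is given for an alternative, its count shows only how far the calls moved. With only the 2 groups in the fit, 43 members were lower and 10 higher in GAS41-KO over WT. With wt rescue replicate 1 alone in its group, 36 were higher over GAS41-KO, 1 was higher and 0 lower over WT, and 25 were lower in mut rescue. For wt rescue over GAS41-KO, members called lower were 4 with the gene span trend removed, 3 with library totals, and 1 each without a filter and with quantile normalization. For mut rescue over GAS41-KO, 3 were higher with the span trend removed or quantile normalization, 1 without a filter and 0 at an adjusted p under 0.01. For mut rescue over wt rescue, 4 were higher with the span trend removed, 3 without a filter and 5 with library totals. For wt rescue over WT, 21 were higher and 2 lower with the span trend removed, 11 and 2 with quantile normalization, 6 and 5 with library totals, 12 higher at 0.01 and 2 lower without a filter. For mut rescue over WT, 26 were lower with library totals and 1 was higher at 0.01. For doxorubicin, 13 were higher with quantile normalization and 19 with library totals. The cause of these moves was not tested, beyond fewer libraries or a stricter threshold where the alternative has them. Library totals moved the median of all genes by -0.18 in wt rescue over GAS41-KO, -0.13 in wt rescue over WT and 0.13 in mut rescue over wt rescue.

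Leaving out 1 library gave 22 to 24 members lower and 2 higher in GAS41-KO over WT, 51 to 59 higher and 0 to 1 lower in wt rescue over GAS41-KO, 0 to 7 higher and 0 to 4 lower in mut rescue over GAS41-KO, 38 to 56 lower and 1 to 2 higher in mut rescue over wt rescue, 11 to 57 higher and 1 to 2 lower in wt rescue over WT, 2 to 7 higher and 12 to 27 lower in mut rescue over WT, and 27 to 38 lower and 6 to 20 higher with doxorubicin. For most of these fits no share of all genes is given, so the counts show only how far the calls moved. The median of members in mut rescue over WT ran from -0.10 without mut rescue replicate 2 to 0.02 without replicate 3, the 1 median that reversed.

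Replicate numbers were not taken to pair the libraries, since not every pair of same-numbered libraries had deviations correlated over 0.1. In the GAS41 groups 11 of 18 pairs did (-0.39 to 0.48), and libraries correlated best with their own number in 42 of 72 cases, where numbers that carry nothing give 24, a hint from the data and not from the labels. For doxorubicin and DMSO it was 1 of 3 pairs (-0.39 to 0.15) and 4 of 12 cases, the number that such numbers give. With the number as a block, GAS41-KO over WT had 2 higher and 29 lower, wt rescue over GAS41-KO 57 and 0, mut rescue over GAS41-KO 5 and 0, mut rescue over wt rescue 1 and 48, wt rescue over WT 42 and 1, mut rescue over WT 5 and 18, and doxorubicin 8 and 33. A planned correction for protein length was not run. Depth limits the isoform genes with few reads.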

Other observations

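Assembly factors, which build the complexes without staying in them, were counted beside the subunits, against all genes, of which 26.6% fell and 26% rose in GAS41-KO over WT, 33% rose and 33% fell in wt rescue over GAS41-KO, 5.92% rose and 9% fell in mut rescue over GAS41-KO, and 33.4% fell and 32.3% rose with doxorubicin. Of 13 complex I assembly factors, 10 fell and none rose in GAS41-KO over WT (median log2 change -0.32), 12 rose and 1 fell in wt rescue over GAS41-KO (0.49), 3 rose and none fell in mut rescue over GAS41-KO (0.07) and 8 fell and 1 rose with doxorubicin (-0.28). TMEM126B (-0.52, SE 0.06, limma adjusted p = 1.23e-06) and NDUFAF4 (-0.51, SE 0.06, adjusted p = 1.54e-06) fell most in GAS41-KO, and NDUFAF4 fell most with doxorubicin (-0.81, SE 0.09, adjusted p = 2.66e-06). Of 24 assembly factors of complexes II to V, 9 fell and 1 rose in GAS41-KO, 15 rose and 2 fell in wt rescue over GAS41-KO, and 12 fell and 6 rose with doxorubicin. The 9 falls in GAS41-KO are 37.5% of that list. BCS1L, which inserts the Rieske protein into complex III, fell in GAS41-KO (-0.63, SE 0.06, adjusted p = 1.79e-07). UQCC1, a factor for cytochrome b of the same complex, rose 1.78-fold with doxorubicin (0.73, SE 0.07, adjusted p = 5.96e-07).

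Of 16 enzymes of the tricarboxylic acid cycle and its entry step, 8 fell and 3 rose in GAS41-KO, 10 rose and 2 fell in wt rescue over GAS41-KO, and 7 fell and 1 rose with doxorubicin. Over all genes, 26.6% fell and 26% rose in GAS41-KO, and 33% rose and 33% fell in wt rescue over GAS41-KO. With doxorubicin 33.4% of all genes fell and 32.3% rose. FH, which hydrates the fumarate that complex II makes, fell in GAS41-KO (log2 change -0.78, SE 0.06, limma adjusted p = 4.85e-08) and with doxorubicin (-0.81, SE 0.06, adjusted p = 1.97e-07). DLAT, the acetyltransferase of pyruvate dehydrogenase, fell in GAS41-KO (-0.72, SE 0.05, adjusted p = 1.7e-08) and with doxorubicin (-1.12, SE 0.08, adjusted p = 3.96e-08). OGDH, the oxoglutarate dehydrogenase, rose in both (0.58, SE 0.07, adjusted p = 2.55e-06, and 0.45, SE 0.07, adjusted p = 9.25e-05). Of 10 electron carriers, ubiquinone synthesis enzymes and inhibitors, 5 fell and none rose in GAS41-KO, 8 rose in wt rescue over GAS41-KO, and 6 fell and 2 rose with doxorubicin. CYC1, a subunit of complex III, was counted in this list and was among the 5 that fell in GAS41-KO. These lists were chosen with earlier results known, and the genes named from them were chosen after their values were seen.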
